A study of Mus musculus with 12 samples.

Results

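The genes described here are 36 antiviral effectors and RNA sensors that interferon is known to induce, measured in the mouse dendritic cell line DC2.4 of wild-type genotype. They were chosen by name, with earlier results of these data known. All 36 symbols matched a row of a count table with 42687 gene identifiers. Cells were grown in culture wells and given extracellular vesicles, the small membrane particles that cells shed, from T cells. The 4 groups of 3 libraries were vesicles of activated T cells at 15 µg/mL (ATEV), the same dose of ATEV pretreated with the DNA-degrading enzyme Baseline-ZERO DNase (DNase-treated ATEV), vesicles of non-activated T cells at 30 µg/mL (NTEV), and phosphate-buffered saline without vesicles (PBS). The labels state 5 µg/mL of vesicle DNA after the NTEV dose, and it is not clear whether that figure also covers ATEV. Vesicle amount differed between ATEV and NTEV, so dose and T cell activation cannot be told apart. The labels say that treatment and replating were done 3 times, which may mean rounds on the same cells or separate experiments. Whether replicate libraries stem from separate cultures is not stated, so p-values measure the spread between these libraries, which may be technical.

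Interferons are secreted proteins that bind receptors on the cell surface. Type I and type II interferons act through Janus kinases, STAT transcription factors and interferon regulatory factors, and switch on a large set of genes. The products studied here sense viral RNA, stop protein synthesis, cut or edit RNA, trap virus particles at membranes or attach the ubiquitin-like protein ISG15 to other proteins. In dendritic cells, which present antigen to T cells, this programme accompanies the sensing of foreign or misplaced nucleic acid.

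A DNA element found before many of these genes is the interferon-stimulated response element (ISRE). Its core, GAAA and a second GAAA separated by any 2 bases, was searched on both strands in RefSeq promoter windows of build GRCm38.p6, each from 250 bases before to 50 bases after an annotated start. Windows were found for 30 of the 36 genes, and 14 of these 30 (46.7%) held at least 1 core, beside 3.99% of the 27025 genes in the whole table. Cores within a window could overlap and were counted separately. The gamma-activated site, searched as TTCNNNGAA, was in windows of 8 of the 30 (26.7%), beside 9.55% of all genes. It overlapped an ISRE core in Bst2 and Ifitm3. A match describes letters only. The windows of 5 genes are shown because they stand for the patterns below, with ISRE cores in capitals. Isg15, Rsad2 and Oas3 carry cores and were called higher with ATEV, Ifit1 carries cores and was not called, and Oasl2 has no core in this window and was called higher with ATEV.
Isg15: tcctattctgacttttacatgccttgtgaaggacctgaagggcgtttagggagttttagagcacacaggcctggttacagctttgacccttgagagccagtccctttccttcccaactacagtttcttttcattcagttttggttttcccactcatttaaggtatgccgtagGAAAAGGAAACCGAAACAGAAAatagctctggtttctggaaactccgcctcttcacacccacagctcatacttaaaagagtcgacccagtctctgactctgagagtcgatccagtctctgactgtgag
Rsad2: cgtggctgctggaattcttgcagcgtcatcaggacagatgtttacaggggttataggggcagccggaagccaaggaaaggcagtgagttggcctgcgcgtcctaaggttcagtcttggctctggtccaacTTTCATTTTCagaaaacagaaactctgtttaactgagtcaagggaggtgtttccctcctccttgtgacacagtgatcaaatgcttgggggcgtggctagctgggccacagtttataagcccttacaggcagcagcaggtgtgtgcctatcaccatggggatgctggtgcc
Oas3: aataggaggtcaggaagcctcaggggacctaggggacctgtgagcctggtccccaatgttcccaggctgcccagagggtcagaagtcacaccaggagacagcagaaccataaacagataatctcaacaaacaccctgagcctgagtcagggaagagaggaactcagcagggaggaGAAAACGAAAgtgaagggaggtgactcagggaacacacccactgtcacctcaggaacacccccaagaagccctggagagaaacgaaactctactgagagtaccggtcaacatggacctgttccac
Ifit1: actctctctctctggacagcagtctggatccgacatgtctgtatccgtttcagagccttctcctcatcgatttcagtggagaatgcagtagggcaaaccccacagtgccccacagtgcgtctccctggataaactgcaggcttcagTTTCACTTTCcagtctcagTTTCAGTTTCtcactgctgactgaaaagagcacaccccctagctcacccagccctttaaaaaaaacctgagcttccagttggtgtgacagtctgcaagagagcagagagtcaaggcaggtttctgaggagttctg
Oasl2: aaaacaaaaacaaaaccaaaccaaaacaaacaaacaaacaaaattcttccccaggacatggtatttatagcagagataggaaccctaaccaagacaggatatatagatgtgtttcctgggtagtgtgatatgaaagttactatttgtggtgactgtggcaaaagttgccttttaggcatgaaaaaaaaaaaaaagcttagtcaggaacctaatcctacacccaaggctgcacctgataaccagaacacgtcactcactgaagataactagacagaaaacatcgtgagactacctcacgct
The Isg15 window (chr4:156200769-156201068, minus strand) has 3 overlapping cores, the first starting 78 bases before the start site. Rsad2 (chr12:26456403-26456702, minus strand) has 1 core starting 120 bases before it, and Oas3 (chr5:120777610-120777909, minus strand) has 1 core 75 bases before it. Ifit1 (chr19:34640639-34640938, plus strand) has 2 cores, 104 and 85 bases before the start. The Oasl2 window is chr5:114896684-114896983, plus strand.

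Library totals ran from 19392942 to 30383572 counts. Of all genes, 13261 had enough counts to be tested. On the first principal component (38.2% of the variance) DNase-treated ATEV replicate 1 (-26.3) and NTEV replicate 1 (-19.5) stood apart from the other libraries of their groups (4.83 and 9.05 for DNase-treated ATEV, 37.3 and 12.9 for NTEV) and lay in the range of the PBS libraries (-35.7 to -12.3). Counts and medians of members, and the values of several members against PBS, are also given without them. The ATEV libraries lay at 26.8, 20.4 and 5.92, which overlaps the other vesicle groups. PBS replicate 1 was likewise the lowest of its group. Deviations of replicate 1 from the group mean correlated at 0.499 between DNase-treated ATEV and PBS over all tested genes. The correlation was 0.577 between NTEV and PBS and -0.178 between ATEV and PBS. Of 10 listed dendritic and myeloid markers 9 were tested, while the dendritic cell growth factor receptor Flt3 had 0 to 5 counts per group. Of 11 T cell markers, the defining genes Cd3e and Cd8a had 0 counts in all 12 libraries. The T cell list summed to 43.2 to 62.2 CPM (counts per 1000000 counts, scaled between libraries) with ATEV, 52.9 to 59.7 CPM with DNase-treated ATEV, 34.8 to 52.5 CPM with NTEV and 59.5 to 102 CPM in PBS, nearly all of it Lck and Cd28, and Cd28 was lower with ATEV (-0.83, adjusted p = 0.0488) and NTEV (-1.07, adjusted p = 0.0266) than PBS. The 6 macrophage markers, all tested, summed to 3800 to 6750 CPM with ATEV, 2460 to 2770 CPM with DNase-treated ATEV, 4010 to 4830 CPM with NTEV and 2670 to 3210 CPM in PBS, so the sums moved with ATEV and NTEV. Against PBS, Lyz2 (1.22, adjusted p = 0.0113) and Fcgr1 (0.73, adjusted p = 0.0453) were higher and Mrc1 (-1.69, adjusted p = 0.0292) lower with ATEV. Of the dendritic and myeloid markers 3 were called for ATEV against PBS, among them Itgax (1.29, adjusted p = 0.0116) and Itgam (0.51, adjusted p = 0.0435), both higher. The other is not named here, and single markers of these lists are given for ATEV against PBS only. The part of these markers in the results below was not tested. Markers of B cells summed to at most 0.474 CPM and of fibroblasts to at most 4.08 CPM in any library, with Ms4a1 at 0 counts throughout.

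With all 12 libraries, a majority of the antiviral genes were called higher with ATEV than in PBS. Smaller numbers were called higher than with DNase-treated ATEV or NTEV, though the median differences were of similar size. Of the 36 members 35 were tested, and 21 were called higher and none lower against PBS (edgeR's quasi-likelihood test, adjusted p under 0.05 by Benjamini-Hochberg over all 13261 genes). A value given for a gene with an SE or an adjusted p is a log2 fold change, the first group named over the second. The 21 are 60% of the tested members, beside 3.32% of all genes called higher and 1.42% called lower. With 1 library of either group left out, the count against PBS was 8 to 16 of the 35, no longer a majority. Because the members were chosen with earlier results known, shares set beside those of all genes are descriptions only. Against DNase-treated ATEV 12 members were higher and none lower (all genes 1.32% higher and 0.143% lower), and against NTEV 14 were higher and none lower (all genes 0.875% higher and 0.0603% lower). The 9 members higher in all 3 of these comparisons were Ifih1, Oas1a, Oasl2, Mx1, Isg15, Rsad2, Trim21, Xaf1 and Sp100. The 3 comparisons share the ATEV libraries, so this count is no independent evidence. Bulk libraries average all cells, so a larger share of responding cells and more RNA per cell cannot be told apart.

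**Figure D1:**
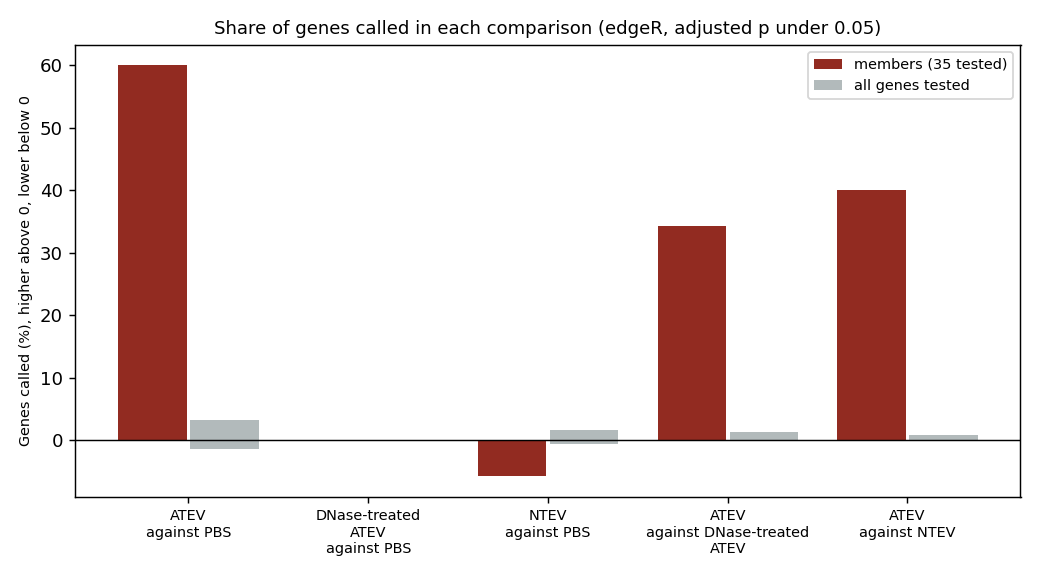
Share of genes called at an adjusted p under 0.05, in percent, for the 35 tested antiviral members (dark red bars) and all 13261 tested genes (grey bars), with genes called higher drawn above 0 and lower below 0. Members reach 60% against PBS, 34.3% against DNase-treated ATEV and 40% against NTEV, and in the NTEV comparison with PBS the 2 called members lie below 0.

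The median log2 fold change of the tested members was 0.96 for ATEV against PBS, where all genes had a median of 0.03. It was 0.91 against DNase-treated ATEV (all genes 0.00) and 0.93 against NTEV (all genes -0.01). The medians were of similar size although fewer members were called in the last 2 comparisons. Log2 fold changes were positive for 31 members and negative for 4 against PBS. They were positive for 33 and negative for 2 against DNase-treated ATEV, and positive for 32 and negative for 3 against NTEV. For DNase-treated ATEV against PBS the members' median was 0.08 (all genes 0.00), and for NTEV against PBS it was 0.02 (all genes 0.00). Without DNase-treated ATEV replicate 1 the members' median for DNase-treated ATEV against PBS had the opposite sign, -0.09 (all genes 0.01), and for ATEV against DNase-treated ATEV it was 0.98 (all genes 0.01). Without NTEV replicate 1 it was 0.03 for NTEV against PBS (all genes 0.02) and 0.84 for ATEV against NTEV (all genes 0.00). The 3 ATEV libraries lay above all 3 PBS libraries for 27 of the 35 members and below them for 1, beside 16.3% and 16.8% of all genes. They lay above all DNase-treated ATEV libraries for 25 and below them for 1, beside 10.1% and 10% of all genes, and above all NTEV libraries for 27 and below them for 0, beside 8.61% and 7.16%.

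**Figure D2:**
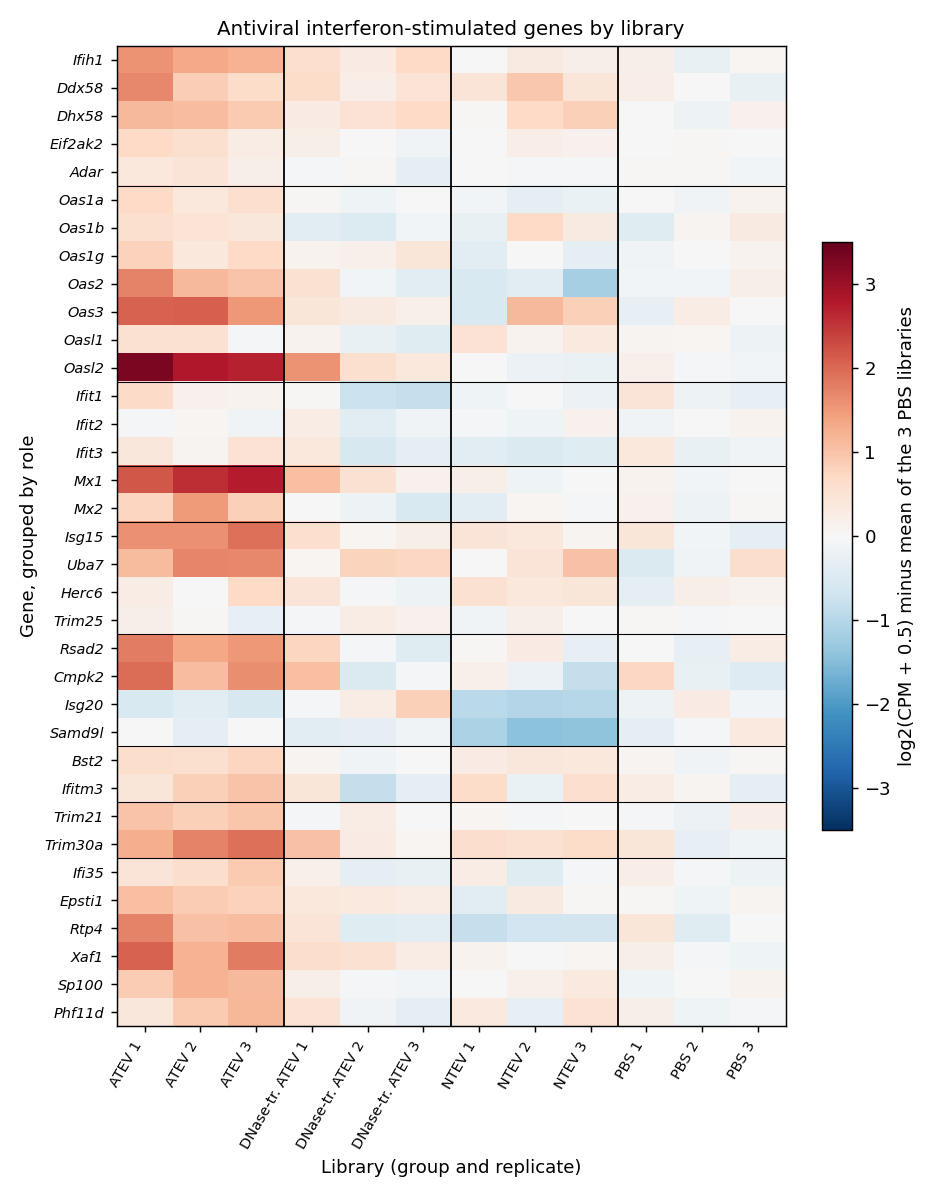
log2(CPM + 0.5) of the 35 tested members in each of the 12 libraries, minus the mean of the 3 PBS libraries, with rows grouped by role and columns by group. The ATEV columns are red for most rows, Oasl2 and Mx1 most deeply, while the rows of Ifit2 and Trim25 are near white throughout and Samd9l and Isg20 are blue with NTEV.

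Of the 5 RNA sensors and RNA-responsive enzymes 4 were higher with ATEV than PBS, and 1, Ifih1, was also higher than with DNase-treated ATEV and with NTEV. Ifih1, which encodes MDA5, a sensor of long double-stranded RNA, measured 15.2, 12.9 and 11.8 CPM in the ATEV libraries, 7.41, 6.01 and 8.1 CPM with DNase-treated ATEV, 4.76, 6.09 and 5.57 CPM with NTEV and 5.63, 3.9 and 5.0 CPM in PBS. Every ATEV library lay above every library of the other groups. Its log2 fold change was 1.45 ± 0.20 (SE, adjusted p = 0.00103) against PBS, 0.89 ± 0.19 (SE, adjusted p = 0.0397) against DNase-treated ATEV and 1.28 ± 0.20 (SE, adjusted p = 0.00464) against NTEV. Ddx58, which encodes RIG-I, a sensor of short RNA with uncapped ends, measured 10.9, 6.02 and 5.09 CPM in the ATEV libraries, 5.1, 3.74 and 4.47 CPM with DNase-treated ATEV, 4.38, 6.41 and 4.28 CPM with NTEV and 3.72, 3.15 and 2.5 CPM in PBS. ATEV replicate 1 was far above its 2 partners, which overlapped the NTEV and DNase-treated libraries but not PBS. Ddx58 was called against PBS (1.24 ± 0.30 SE, adjusted p = 0.0344) but not against DNase-treated ATEV (0.73, adjusted p = 0.261) or NTEV (0.55, adjusted p = 0.421). Dhx58, which encodes LGP2, a regulator of both sensors, measured 12.7, 12.3 and 10.8 CPM in the ATEV libraries, 6.84, 8.05 and 9.14 CPM with DNase-treated ATEV, 5.69, 9.13 and 10.1 CPM with NTEV and 5.55, 4.84 and 6.16 CPM in PBS. It too was called only against PBS of these 3 comparisons (1.11 ± 0.22 SE, adjusted p = 0.0131), with values of 0.57 (adjusted p = 0.233) against DNase-treated ATEV and 0.52 (adjusted p = 0.323) against NTEV. When 1 library was left out, the PBS call of Ddx58 was lost without ATEV replicate 1 or 2 or PBS replicate 1, 2 or 3 (adjusted p up to 0.136) and that of Dhx58 without ATEV replicate 2 or PBS replicate 1 or 2 (adjusted p up to 0.0753). The Ifih1 call against DNase-treated ATEV was lost without any 1 of the 6 libraries compared (adjusted p up to 0.19) and with library totals as the only scaling (adjusted p = 0.07) or in a fit of the 6 libraries alone (adjusted p = 0.0627).

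The RNA-activated kinase and the RNA editor differed less. Eif2ak2, which encodes PKR, a kinase that halts translation when it binds double-stranded RNA, measured 55.8, 50.3 and 40.8 CPM in the ATEV libraries, 39.4, 33.6 and 31.2 CPM with DNase-treated ATEV, 34.3, 40.3 and 37.5 CPM with NTEV and 33.7, 34.7 and 33.6 CPM in PBS. The ATEV libraries were highest, with a call against PBS (0.53 ± 0.14 SE, adjusted p = 0.0457) and values of 0.50 (adjusted p = 0.109) against DNase-treated ATEV and 0.39 (adjusted p = 0.245) against NTEV. The call against PBS ended without ATEV replicate 1 or 2 or PBS replicate 1, 2 or 3 (adjusted p up to 0.16) and with limma-voom (adjusted p = 0.0517). Adar, whose product converts adenosine to inosine in double-stranded RNA, ranged from 109 to 129 CPM with ATEV and from 88.8 to 97.5 CPM in PBS. It was not called against PBS (0.35 ± 0.12 SE, adjusted p = 0.0962), DNase-treated ATEV (0.46, adjusted p = 0.0891) or NTEV (0.38, adjusted p = 0.204).

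The OAS family, most of whose members are enzymes that sense double-stranded RNA and make short adenylate chains that activate RNase L, had 5 of 7 tested members higher with ATEV than PBS. Against DNase-treated ATEV 3 were higher, and against NTEV 4. Oasl2 had the smallest adjusted p of all members against PBS. It measured 18.2, 12.9 and 11.9 CPM in the ATEV libraries, 5.25, 2.32 and 2.0 CPM with DNase-treated ATEV, 1.41, 1.16 and 1.14 CPM with NTEV and 1.68, 1.31 and 1.29 CPM in PBS. The ATEV libraries were clear of all others, and among the rest DNase-treated ATEV replicate 1 was highest. Its log2 fold change was 3.32 ± 0.34 (SE, adjusted p = 0.000164) against PBS, 2.18 ± 0.32 (SE, adjusted p = 0.00368) against DNase-treated ATEV and 3.52 ± 0.35 (SE, adjusted p = 0.00012) against NTEV, and all 3 calls were kept in each fit with 1 library left out. Oas3, the longest enzyme of the family, measured 53.9, 54.7 and 36.6 CPM in the ATEV libraries, 16.9, 15.7 and 14.1 CPM with DNase-treated ATEV, 8.56, 28.2 and 22.6 CPM with NTEV and 10.2, 15.0 and 12.8 CPM in PBS. NTEV replicates 2 and 3 lay above every PBS library while NTEV replicate 1 lay below them. Oas3 was called against PBS (1.93 ± 0.33 SE, adjusted p = 0.00562) and DNase-treated ATEV (1.63 ± 0.33 SE, adjusted p = 0.0236) but not against NTEV (1.29 ± 0.32 SE, adjusted p = 0.103). The call against DNase-treated ATEV was lost without ATEV replicate 2 or DNase-treated ATEV replicate 1, 2 or 3 (adjusted p up to 0.118).

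Oas2 measured 9.08, 5.88 and 5.3 CPM in the ATEV libraries, 3.66, 2.23 and 1.75 CPM with DNase-treated ATEV, 1.48, 1.68 and 0.796 CPM with NTEV and 2.2, 2.21 and 2.8 CPM in PBS. Its NTEV libraries were all below its PBS libraries and its ATEV libraries above every other group, with calls against PBS (1.49 ± 0.33 SE, adjusted p = 0.0233) and NTEV (2.34 ± 0.34 SE, adjusted p = 0.00342) and a value of 1.41 (adjusted p = 0.0532) against DNase-treated ATEV. Oas1a measured 32.3, 25.7 and 29.9 CPM in the ATEV libraries, 20.5, 17.9 and 20.0 CPM with DNase-treated ATEV, 18.6, 15.8 and 16.7 CPM with NTEV and 19.7, 18.3 and 21.6 CPM in PBS. ATEV libraries were highest, by a smaller margin, with log2 fold changes of 0.56 ± 0.13 (SE, adjusted p = 0.0336) against PBS, 0.59 ± 0.13 (SE, adjusted p = 0.0479) against DNase-treated ATEV and 0.78 ± 0.13 (SE, adjusted p = 0.0101) against NTEV. Its neighbour and close copy Oas1g measured 25.0, 18.2 and 23.2 CPM in the ATEV libraries, 15.3, 15.9 and 18.9 CPM with DNase-treated ATEV, 10.7, 14.0 and 11.1 CPM with NTEV and 13.0, 13.8 and 15.4 CPM in PBS. ATEV replicate 2 lay within the DNase-treated range, and Oas1g was called against PBS (0.65 ± 0.17 SE, adjusted p = 0.043) and NTEV (0.89 ± 0.17 SE, adjusted p = 0.0175) but not against DNase-treated ATEV (0.41, adjusted p = 0.271). The call against PBS ended for Oas2 without ATEV replicate 1 or 2 or PBS replicate 1, 2 or 3 (adjusted p up to 0.118), for Oas1a without ATEV replicate 1 or 3 or PBS replicate 1, 2 or 3 (adjusted p up to 0.172) and for Oas1g without ATEV replicate 1 or 3 or PBS replicate 1, 2 or 3 (adjusted p up to 0.162) and with library totals as the only scaling (adjusted p = 0.0558). Against DNase-treated ATEV the Oas1a call was lost without any 1 of the 6 libraries compared (adjusted p up to 0.222) and with library totals as the only scaling (adjusted p = 0.0749), with no filter (adjusted p = 0.0675) or in a fit of the 6 libraries alone (adjusted p = 0.111). Against NTEV the Oas1a call was lost without NTEV replicate 3 (adjusted p = 0.0803) and in a fit of the 6 libraries alone (adjusted p = 0.0967) and the Oas1g call without ATEV replicate 3 or NTEV replicate 1 or 3 (adjusted p up to 0.114) and in a fit of the 6 libraries alone (adjusted p = 0.119). Oas1b was not called in any comparison, with a log2 fold change of 0.57 (adjusted p = 0.294) against PBS. Nor was Oasl1, known in mouse as a brake on Irf7 protein synthesis, at 0.36 (adjusted p = 0.251). Reads of the Oas1 copies may be split between genes, so their individual values are uncertain.

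The IFIT family, proteins that bind the ends of foreign RNA and are often used as readouts of type I interferon, had no call in any of the 5 comparisons. Ifit2, the member with the most counts, measured 10.5, 11.4 and 9.86 CPM in the ATEV libraries, 13.0, 8.33 and 9.89 CPM with DNase-treated ATEV, 10.6, 9.73 and 12.0 CPM with NTEV and 9.95, 10.8 and 11.9 CPM in PBS. The 4 groups overlapped, and the log2 fold change was -0.04 ± 0.18 (SE, adjusted p = 0.911) for ATEV against PBS. Ifit1 averaged 0.885 ± 0.315 CPM with ATEV, 0.298 ± 0.284 CPM with DNase-treated ATEV, 0.51 ± 0.0801 CPM with NTEV and 0.619 ± 0.332 CPM in PBS (SD, n = 3). Its log2 fold change was 0.51 ± 0.50 (SE, adjusted p = 0.529) for ATEV against PBS. Against DNase-treated ATEV it was 1.59 ± 0.56 (SE, adjusted p = 0.212), with all ATEV libraries above, and against NTEV 0.79 (adjusted p = 0.515). Ifit3 averaged 0.606 ± 0.16 CPM with ATEV, 0.31 ± 0.28 CPM with DNase-treated ATEV, 0.147 ± 0.0263 CPM with NTEV and 0.392 ± 0.217 CPM in PBS (SD, n = 3). Its log2 fold change was 0.60 ± 0.53 (SE, adjusted p = 0.484) against PBS, 0.97 (adjusted p = 0.42) against DNase-treated ATEV and 1.99 ± 0.61 (SE, adjusted p = 0.193) against NTEV, the last with all ATEV libraries above. At these low levels the SEs were wide, and close copies in the same cluster (Ifit3b, Ifit1bl1) make the counts of Ifit1 and Ifit3 uncertain.

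The Mx genes encode dynamin-like GTPases that block virus replication. Many inbred mouse strains carry defective alleles. Mx1 had the largest log2 fold change of all members against PBS. It measured 2.37, 3.34 and 3.82 CPM in the ATEV libraries, 0.818, 0.426 and 0.209 CPM with DNase-treated ATEV, 0.242, 0.0801 and 0.149 CPM with NTEV and 0.20, 0.0939 and 0.129 CPM in PBS. All ATEV libraries were above all others, on low counts of 197 with ATEV and 10 in PBS over 3 libraries. The log2 fold change was 4.42 ± 0.50 (SE, adjusted p = 0.000278) against PBS, 2.72 ± 0.42 (SE, adjusted p = 0.0049) against DNase-treated ATEV and 4.26 ± 0.48 (SE, adjusted p = 0.000415) against NTEV, each kept when any 1 library was left out. Mx2 measured 0.818, 1.67 and 0.901 CPM in the ATEV libraries, 0.289, 0.189 and 0.0417 CPM with DNase-treated ATEV, 0.104, 0.32 and 0.249 CPM with NTEV and 0.36, 0.188 and 0.302 CPM in PBS. Every ATEV library lay above every other library. Mx2 was higher with ATEV against PBS (1.96 ± 0.50 SE, adjusted p = 0.0434) and DNase-treated ATEV (2.70 ± 0.55 SE, adjusted p = 0.0248), and not called against NTEV (2.34, adjusted p = 0.0544). The call against PBS ended without ATEV replicate 2 or 3 or PBS replicate 1, 2 or 3 (adjusted p up to 0.179) and with limma-voom (adjusted p = 0.0585). The call against DNase-treated ATEV was lost without ATEV replicate 2 or 3 or DNase-treated ATEV replicate 2 or 3 (adjusted p up to 0.147).

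Of the genes that make and attach the ISG15 modifier, the modifier and its activating enzyme were higher with ATEV while the ligases were not called. Isg15 measured 4.3, 4.35 and 5.51 CPM in the ATEV libraries, 1.88, 1.18 and 1.34 CPM with DNase-treated ATEV, 1.69, 1.56 and 1.19 CPM with NTEV and 1.64, 0.986 and 0.776 CPM in PBS. The ATEV libraries lay above all others, with log2 fold changes of 2.04 ± 0.30 (SE, adjusted p = 0.00184) against PBS, 1.68 ± 0.30 (SE, adjusted p = 0.00996) against DNase-treated ATEV and 1.66 ± 0.29 (SE, adjusted p = 0.0129) against NTEV. Uba7, the activating enzyme, measured 22.3, 34.0 and 33.5 CPM in the ATEV libraries, 10.7, 17.8 and 16.9 CPM with DNase-treated ATEV, 10.2, 14.2 and 21.2 CPM with NTEV and 7.03, 9.34 and 15.7 CPM in PBS. Its PBS libraries spread widely, ATEV was above all of them, and the log2 fold change was 1.48 ± 0.32 (SE, adjusted p = 0.0231) against PBS, with values of 0.98 (adjusted p = 0.18) against DNase-treated ATEV and 0.98 (adjusted p = 0.219) against NTEV. Herc6, the main ISG15 ligase in mouse (0.38, adjusted p = 0.386 against PBS), and Trim25, a ligase that also acts on RIG-I (-0.00, adjusted p = 0.991), were not called. Trim25 ranged from 201 to 280.2 CPM with ATEV and from 236 to 249 CPM in PBS. The Isg15 calls were lost without ATEV replicate 3 or DNase-treated ATEV replicate 2 or 3 (adjusted p up to 0.081) against DNase-treated ATEV and without ATEV replicate 3 or NTEV replicate 3 (adjusted p up to 0.107) against NTEV. The Uba7 call against PBS was lost without ATEV replicate 2 or 3 or PBS replicate 1 or 2 (adjusted p up to 0.106).

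The nucleotide and nucleic acid enzymes were split. Rsad2, which encodes viperin, an enzyme that makes a chain-terminating nucleotide, measured 5.12, 3.68 and 4.19 CPM in the ATEV libraries, 2.26, 1.09 and 0.709 CPM with DNase-treated ATEV, 1.17, 1.48 and 0.845 CPM with NTEV and 1.16, 0.845 and 1.47 CPM in PBS. The ATEV libraries lay above all others, with log2 fold changes of 1.90 ± 0.38 (SE, adjusted p = 0.014) against PBS, 1.69 ± 0.38 (SE, adjusted p = 0.0428) against DNase-treated ATEV and 1.88 ± 0.38 (SE, adjusted p = 0.0297) against NTEV. The neighbouring gene Cmpk2, a mitochondrial nucleotide kinase, averaged 2.48 ± 0.871 CPM with ATEV and 0.554 ± 0.492 CPM in PBS (SD, n = 3) and was not called (2.13 ± 0.71 SE, adjusted p = 0.0934). The Rsad2 calls were lost without PBS replicate 1 or 2 (adjusted p up to 0.0911) against PBS, without ATEV replicate 1, 2 or 3 or DNase-treated ATEV replicate 2 or 3 (adjusted p up to 0.191) and in a fit of the 6 libraries alone (adjusted p = 0.066) against DNase-treated ATEV and without ATEV replicate 1, 2 or 3 or NTEV replicate 1 or 3 (adjusted p up to 0.184) against NTEV.

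Samd9l and Isg20 were lower with NTEV than PBS and not called for ATEV against PBS. Samd9l, whose product restrains translation and cell growth, measured 16.1, 12.5 and 16.1 CPM in the ATEV libraries, 12.2, 12.3 and 14.6 CPM with DNase-treated ATEV, 7.07, 5.57 and 5.72 CPM with NTEV and 12.8, 15.4 and 20.3 CPM in PBS. The NTEV libraries were the lowest of all, and none overlapped another group. Samd9l fell with NTEV against PBS (-1.40 ± 0.20 SE, adjusted p = 0.00443), a call lost in a fit of the 6 libraries alone (adjusted p = 0.056). It was higher with ATEV than NTEV (1.28 ± 0.20 SE, adjusted p = 0.00464) and not called for ATEV against PBS (-0.12, adjusted p = 0.721). Isg20, an exonuclease that degrades single-stranded RNA, measured 1.33, 1.53 and 1.33 CPM in the ATEV libraries, 2.07, 2.7 and 4.21 CPM with DNase-treated ATEV, 0.897, 0.801 and 0.845 CPM with NTEV and 1.84, 2.77 and 1.98 CPM in PBS. NTEV libraries were lowest and ATEV libraries also lay below all PBS libraries. Isg20 fell with NTEV against PBS (-1.36 ± 0.30 SE, adjusted p = 0.0361), a call lost without NTEV replicate 2 or 3 or PBS replicate 1, 2 or 3 (adjusted p up to 0.147) and with library totals as the only scaling (adjusted p = 0.051), with limma-voom (adjusted p = 0.0581) or in a fit of the 6 libraries alone (adjusted p = 0.0799). With ATEV against PBS its log2 fold change was -0.65 ± 0.29 (SE, adjusted p = 0.178). Against DNase-treated ATEV it was -1.10 ± 0.29 (SE, adjusted p = 0.095), with all ATEV libraries below all DNase-treated libraries. DESeq2 called Isg20 lower in that comparison (adjusted p = 0.0292). Against NTEV its value was 0.71 (adjusted p = 0.35), with all ATEV libraries above.

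**Figure D3:**
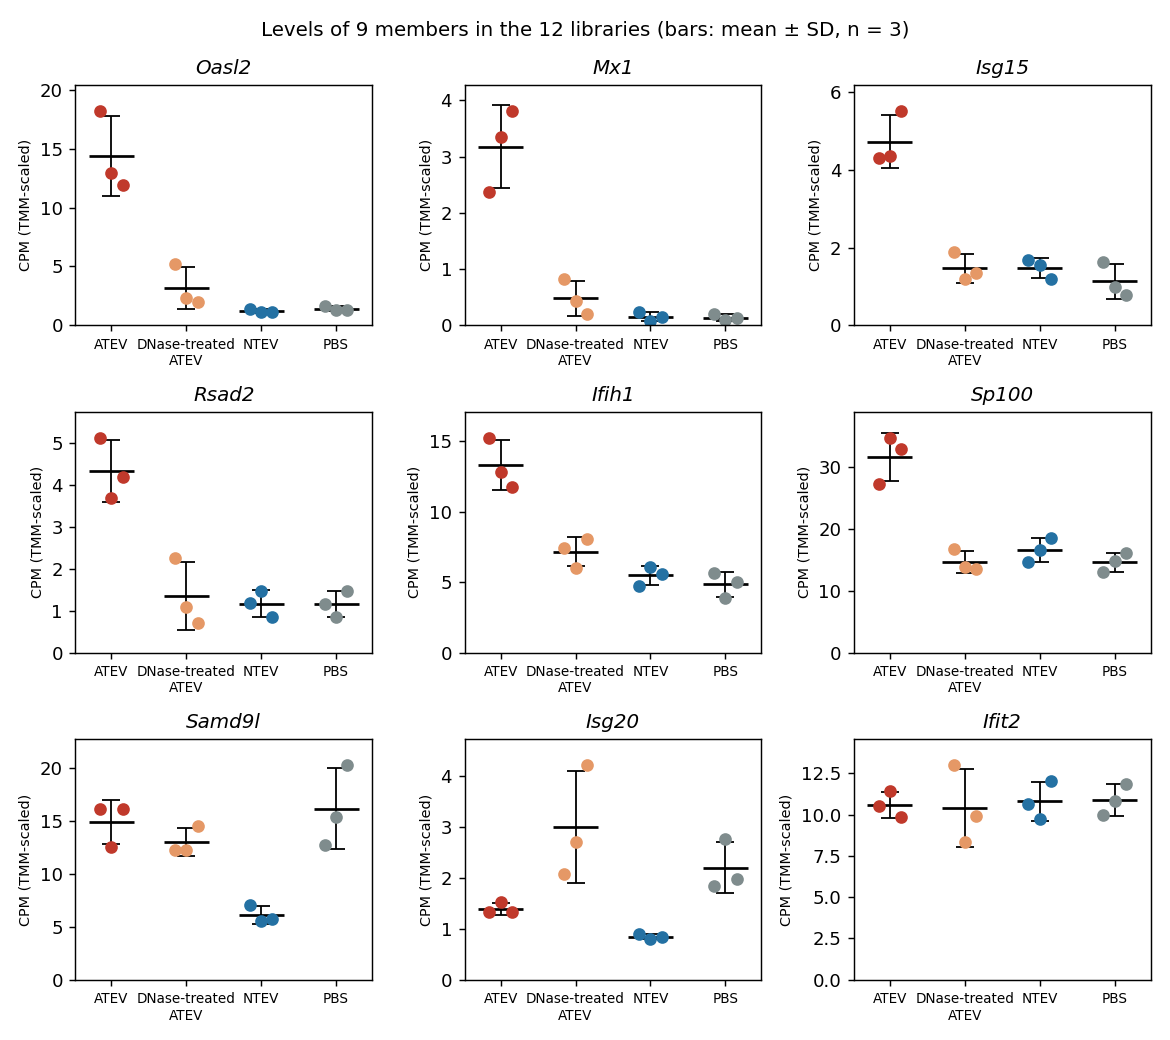
CPM of 9 members in each of the 12 libraries (points), with the mean and SD of each group (bars, n = 3) and the groups from left to right ATEV, DNase-treated ATEV, NTEV and PBS. The ATEV points of Oasl2, Mx1, Isg15, Rsad2, Ifih1 and Sp100 clear those of every other group, the NTEV points are lowest for Samd9l and Isg20, and the groups of Ifit2 overlap.

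The membrane restriction factors were the most abundant members per length. Ifitm3, which blocks fusion of virus with cell membranes, stood at 967 CPM per kb of exon with ATEV and 573 CPM per kb in PBS, and Bst2, also called tetherin, which holds budding virus at the cell surface, at 115 and 73.6 CPM per kb. Bst2 measured 102, 98.4 and 111 CPM in the ATEV libraries, 71.5, 60.4 and 65.1 CPM with DNase-treated ATEV, 81.7, 87.6 and 85.5 CPM with NTEV and 70.9, 60.3 and 68.1 CPM in PBS. ATEV libraries were highest and NTEV libraries lay between them and PBS, with log2 fold changes of 0.65 ± 0.11 (SE, adjusted p = 0.00543) against PBS, 0.66 ± 0.11 (SE, adjusted p = 0.00682) against DNase-treated ATEV and 0.29 (adjusted p = 0.278) against NTEV. Ifitm3 measured 516, 688 and 764 CPM in the ATEV libraries, 512, 213 and 305 CPM with DNase-treated ATEV, 603, 326 and 578 CPM with NTEV and 457, 406 and 303 CPM in PBS. The DNase-treated libraries alone ran from 213 to 512 CPM. The ATEV libraries lay above all PBS and DNase-treated libraries, DNase-treated replicate 1 by a narrow margin, and overlapped NTEV. Ifitm3 was not called for ATEV against PBS (0.75 ± 0.30 SE, adjusted p = 0.14), DNase-treated ATEV (0.93, adjusted p = 0.181) or NTEV (0.39, adjusted p = 0.591). The Bst2 call ended without PBS replicate 2 (adjusted p = 0.0616) against PBS and without DNase-treated ATEV replicate 2 or 3 (adjusted p up to 0.0712) against DNase-treated ATEV.

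Both other TRIM proteins were higher with ATEV. Trim21, a receptor in the cytosol for antibody bound to virus, measured 10.6, 9.51 and 10.5 CPM in the ATEV libraries, 4.86, 6.25 and 5.17 CPM with DNase-treated ATEV, 5.38, 4.84 and 5.12 CPM with NTEV and 4.91, 4.37 and 6.12 CPM in PBS. The ATEV libraries were the highest, with log2 fold changes of 0.99 ± 0.18 (SE, adjusted p = 0.00862) against PBS, 0.91 ± 0.18 (SE, adjusted p = 0.0214) against DNase-treated ATEV and 1.00 ± 0.18 (SE, adjusted p = 0.0143) against NTEV. Trim30a, known in mouse as a brake on NF-kB signalling, measured 11.5, 15.8 and 18.3 CPM in the ATEV libraries, 9.58, 5.54 and 4.67 CPM with DNase-treated ATEV, 7.0, 6.57 and 7.21 CPM with NTEV and 6.15, 3.57 and 3.92 CPM in PBS. ATEV was highest and DNase-treated ATEV replicate 1 stood above its partners, with log2 fold changes of 1.73 ± 0.29 (SE, adjusted p = 0.00459) against PBS, 1.20 (adjusted p = 0.0581) against DNase-treated ATEV and 1.13 (adjusted p = 0.101) against NTEV. The Trim21 call ended without PBS replicate 2 (adjusted p = 0.0611) against PBS, without ATEV replicate 2 or 3 or DNase-treated ATEV replicate 1, 2 or 3 (adjusted p up to 0.107) and in a fit of the 6 libraries alone (adjusted p = 0.0529) against DNase-treated ATEV and without ATEV replicate 3 or NTEV replicate 2 or 3 (adjusted p up to 0.0842) and in a fit of the 6 libraries alone (adjusted p = 0.066) against NTEV. Trim30a belongs to a cluster of close copies, which makes its count uncertain.

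Of the remaining interferon-inducible genes, 4 of 6 tested were higher with ATEV than PBS. Xaf1, whose product counters an inhibitor of apoptosis, measured 8.09, 4.25 and 6.73 CPM in the ATEV libraries, 2.65, 2.46 and 1.96 CPM with DNase-treated ATEV, 1.73, 1.52 and 1.64 CPM with NTEV and 1.88, 1.46 and 1.34 CPM in PBS. Its ATEV libraries lay above all others, with log2 fold changes of 2.02 ± 0.27 (SE, adjusted p = 0.000897) against PBS, 1.43 ± 0.26 (SE, adjusted p = 0.0123) against DNase-treated ATEV and 1.96 ± 0.27 (SE, adjusted p = 0.00198) against NTEV. Sp100, a component of nuclear bodies that silence viral genomes, measured 27.2, 34.7 and 32.8 CPM in the ATEV libraries, 16.7, 13.8 and 13.5 CPM with DNase-treated ATEV, 14.6, 16.6 and 18.5 CPM with NTEV and 13.0, 14.8 and 16.0 CPM in PBS. The ATEV libraries again stood clear, with log2 fold changes of 1.11 ± 0.15 (SE, adjusted p = 0.00112) against PBS, 1.10 ± 0.15 (SE, adjusted p = 0.00245) against DNase-treated ATEV and 0.93 ± 0.15 (SE, adjusted p = 0.00729) against NTEV, and each call held in every fit that omitted 1 library. The Xaf1 call against DNase-treated ATEV was lost without ATEV replicate 3 or DNase-treated ATEV replicate 2 or 3 (adjusted p up to 0.0913).

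Epsti1 measured 17.2, 15.2 and 14.3 CPM in the ATEV libraries, 10.4, 10.3 and 9.72 CPM with DNase-treated ATEV, 6.0, 9.97 and 8.15 CPM with NTEV and 8.27, 7.14 and 8.58 CPM in PBS. ATEV was highest and DNase-treated ATEV libraries all lay above the PBS libraries, with log2 fold changes of 0.96 ± 0.19 (SE, adjusted p = 0.0116) for ATEV against PBS, 0.62 (adjusted p = 0.141) against DNase-treated ATEV and 0.96 ± 0.19 (SE, adjusted p = 0.0237) against NTEV. Rtp4, which encodes a chaperone of membrane receptors, measured 2.63, 1.39 and 1.48 CPM in the ATEV libraries, 0.77, 0.189 and 0.209 CPM with DNase-treated ATEV, 0.0345, 0.0801 and 0.0994 CPM with NTEV and 0.759, 0.188 and 0.431 CPM in PBS. ATEV was highest and NTEV lowest, on 118 counts over the ATEV libraries and 5 over the NTEV libraries, with log2 fold changes of 4.65 ± 0.69 (SE, adjusted p = 0.00355) for ATEV against NTEV, 2.25 (adjusted p = 0.0639) against DNase-treated ATEV and 1.97 ± 0.52 (SE, adjusted p = 0.0486) against PBS. The Rtp4 call against PBS ended without any 1 of the 6 libraries compared (adjusted p up to 0.193), and the Epsti1 call without PBS replicate 2 (adjusted p = 0.0792). Against NTEV the Epsti1 call was lost without ATEV replicate 2 or 3 or NTEV replicate 1 or 3 (adjusted p up to 0.114) and with library totals as the only scaling (adjusted p = 0.0507) or in a fit of the 6 libraries alone (adjusted p = 0.149). Ifi35 (0.69, adjusted p = 0.077) and Phf11d (0.88, adjusted p = 0.0751) were not called against PBS. Calls were gained in some alternatives against PBS for Ifi35 (5 of 14, adjusted p = 0.0333 with DESeq2), Phf11d (4 of 14, adjusted p = 0.0255 with DESeq2), Cmpk2 (4 of 14, adjusted p = 0.0475 with DESeq2), Adar (2 of 14, adjusted p = 0.0499 with DESeq2) and Ifitm3 (2 of 14, with no filter and in a fit of the 6 libraries alone). Ifi44 was not tested, with 2 counts over the ATEV libraries, 2 with DNase-treated ATEV, 0 with NTEV and 3 in PBS.

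With DNase-treated ATEV no member was called against PBS, and edgeR called 0% of all genes in this comparison in either direction. At an unadjusted p under 0.05 there were 5 members, all above PBS, and 5.96% of all genes in either direction. DESeq2 and limma-voom also called 0 members, and 38 and 0 genes overall. Of the 35 members 22 had a positive and 13 a negative log2 fold change. The members furthest above PBS were Mx1 at 1.70 ± 0.57 (SE, adjusted p = 0.708) and Oasl2 at 1.15 ± 0.34 (SE, adjusted p = 0.665), and without DNase-treated ATEV replicate 1 these were 1.09 (adjusted p = 0.418) and 0.58 (adjusted p = 0.38). Those furthest below were Ifit1 at -1.08 ± 0.58 (SE, adjusted p = 0.826) and Mx2 at -0.74 ± 0.64 (SE, adjusted p = 0.837), and without that library -2.20 (adjusted p = 0.3) and -1.32 (adjusted p = 0.437). Ifih1 stood at 0.57 (adjusted p = 0.708), Dhx58 at 0.54 (adjusted p = 0.782) and Xaf1 at 0.59 (adjusted p = 0.824), and without replicate 1 at 0.53 (adjusted p = 0.366), 0.63 (adjusted p = 0.341) and 0.49 (adjusted p = 0.473). In 7 members all DNase-treated ATEV libraries lay above all PBS libraries, and in 0 members below them, beside 7.69% and 5.68% of all genes. Within the group, replicate 1 was the highest library for 25 of the 35 members (38% of all genes). The median over members of log2(CPM + 0.5), relative to each gene's mean over the 12 libraries, was 0.06 in that library and -0.33 and -0.37 in replicates 2 and 3, beside 0.58 to 0.68 in the ATEV libraries and -0.35 to -0.18 in the PBS libraries. Without DNase-treated ATEV replicate 1, the count of members higher with ATEV than DNase-treated ATEV was again 12, of which 8 were among the original 12, and no member was called against PBS.

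With NTEV, 2 members were lower than in PBS and none higher, which is 5.71% of those tested beside 0.611% of all genes called lower and 1.7% called higher. These were Samd9l and Isg20, described above. All NTEV libraries lay above all PBS libraries for 5 members and below them for 5, beside 12.8% and 11.1% of all genes. The lowest value of any member was that of Rtp4, -2.68 ± 0.78 (SE, adjusted p = 0.0955), not called here but called lower by DESeq2 (adjusted p = 0.0331) and with no filter (adjusted p = 0.0151). Ifit3 stood at -1.39 ± 0.64 (SE, adjusted p = 0.253) and Oas2 at -0.84 ± 0.35 (SE, adjusted p = 0.206), both with all NTEV libraries below all PBS libraries. On the other side Ddx58 stood at 0.69 (adjusted p = 0.229), Oas3 at 0.64 (adjusted p = 0.305), Trim30a at 0.60 (adjusted p = 0.273) and Dhx58 at 0.59 (adjusted p = 0.168). In Ddx58, Trim30a, Herc6 (0.50, adjusted p = 0.338) and Oasl1 (0.33, adjusted p = 0.369) all NTEV libraries lay above all PBS libraries. Bst2 stood at 0.35 ± 0.11 (SE, adjusted p = 0.11), with all NTEV libraries above all PBS libraries. It was not called here but was called higher by DESeq2 (adjusted p = 0.0389). Mx1 had 0.16 ± 0.67 (SE, adjusted p = 0.915) on 12 counts over the NTEV libraries and 10 in PBS, Rsad2 0.02 (adjusted p = 0.983), Xaf1 0.06 (adjusted p = 0.918) and Trim21 -0.00 (adjusted p = 0.99). Without NTEV replicate 1 the values were -2.31 (adjusted p = 0.101) for Rtp4, -1.53 (adjusted p = 0.204) for Ifit3, -0.92 (adjusted p = 0.144) for Oas2, 0.79 (adjusted p = 0.125) for Ddx58 and -0.33 (adjusted p = 0.812) for Mx1, whose sign turned. Further values in this setting were 0.39 (adjusted p = 0.0515) for Bst2, 0.61 (adjusted p = 0.221) for Trim30a, 0.45 (adjusted p = 0.346) for Herc6 and 0.25 (adjusted p = 0.447) for Oasl1. They were 0.03 (adjusted p = 0.969) for Rsad2, 0.03 (adjusted p = 0.961) for Xaf1 and -0.03 (adjusted p = 0.94) for Trim21. Without NTEV replicate 1, Dhx58 (0.82, adjusted p = 0.0211) and Oas3 (1.02, adjusted p = 0.0104) were also called higher (4 members called, 2 higher and 2 lower). In the same setting the members higher with ATEV than NTEV numbered 11 of the original 14.

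**Figure D4:**
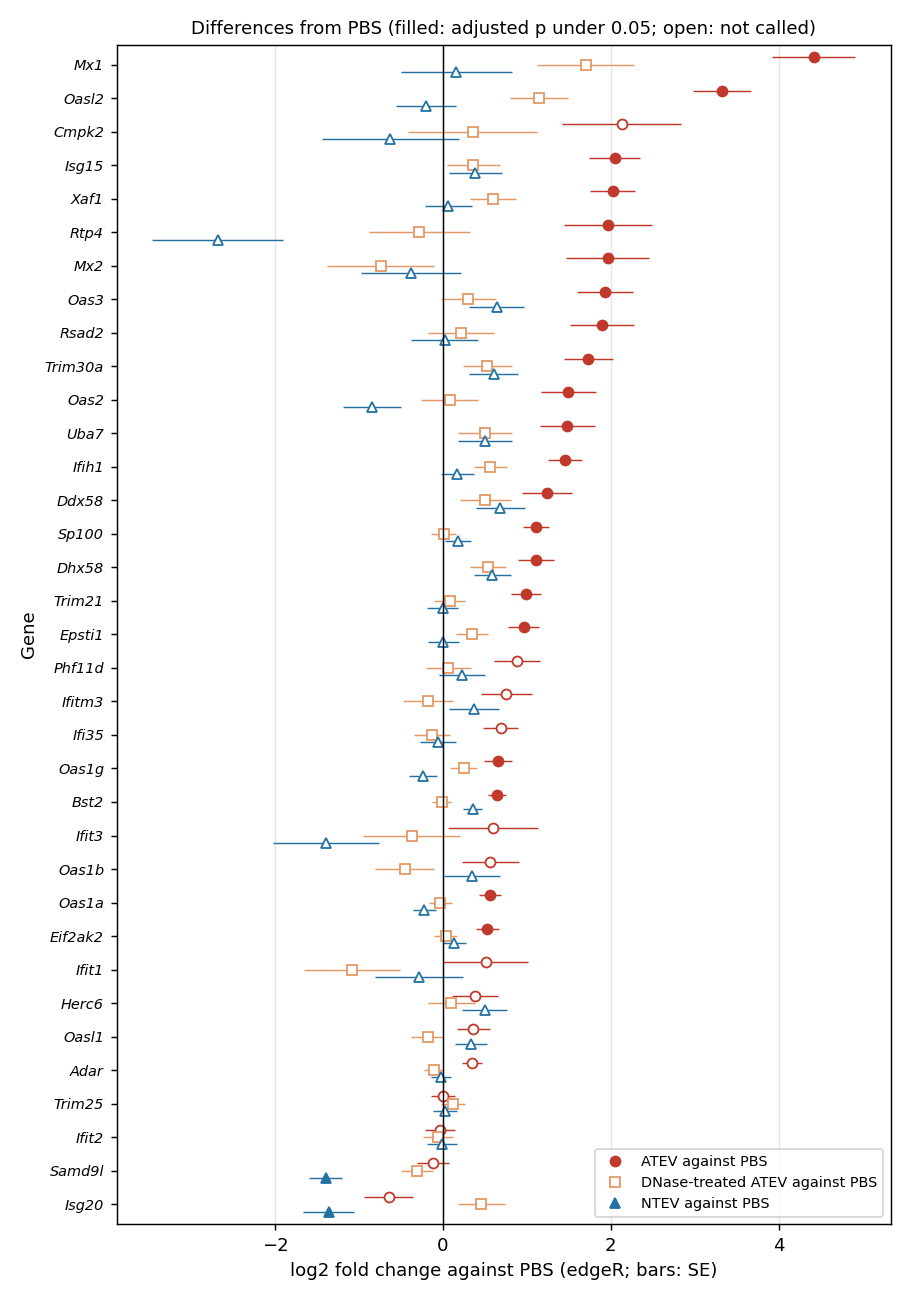
log2 fold change against PBS with its SE for the 35 tested members, ordered by the ATEV value, for ATEV (circles), DNase-treated ATEV (squares) and NTEV (triangles); filled symbols passed an adjusted p under 0.05. Filled circles lie to the right of 0, all squares are open, and the filled triangles are Samd9l and Isg20. The 3 comparisons share the PBS libraries.

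The machinery upstream of these genes was also measured. Of 10 interferon genes 9, Ifnb1 and Ifng among them, had 0 counts in all 12 libraries. Over the ATEV libraries, 0 counts allow up to 0.048 CPM (3 counts among all ATEV counts, counting error only). The read counter is not given and may discard ambiguous reads, and a count of 0 is no proof that a transcript was missing. Of 18 receptors, kinases, STATs, interferon regulatory factors and feedback genes, all tested, 6 were higher with ATEV than PBS and none lower. Irf1, a regulator strongly induced by interferon gamma, averaged 123 ± 3.52 CPM with ATEV and 17.3 ± 9.76 CPM in PBS (SD, n = 3; 2.83 ± 0.37 SE, adjusted p = 0.000786). Irf7 (2.08 ± 0.26 SE, adjusted p = 0.000561) and Irf9 (1.45 ± 0.23 SE, adjusted p = 0.00293) were higher too. Stat2, the partner of Irf9 in the type I complex, was higher (1.25 ± 0.29 SE, adjusted p = 0.03), a call lost without ATEV replicate 2 or 3 or PBS replicate 1 or 2 (adjusted p up to 0.126). The receptor chains Ifnar1 (0.22, adjusted p = 0.32) and Ifnar2 (0.27, adjusted p = 0.309) and the feedback protease Usp18 (1.60, adjusted p = 0.0915) were not called. In this list 4 genes were higher with ATEV than DNase-treated ATEV, among them Irf7 (1.67, adjusted p = 0.00416), Irf1 (2.21, adjusted p = 0.00565) and the myeloid factor Irf8 (0.70, adjusted p = 0.0136). Against NTEV 4 were higher, among them Irf1 (2.86, adjusted p = 0.00123), Irf7 (1.70, adjusted p = 0.00355) and Irf9 (1.28, adjusted p = 0.0124). None was called for DNase-treated ATEV or NTEV against PBS. The list's median log2 fold change was 0.37 for ATEV against PBS (all genes 0.03). The Irf8 call for ATEV against DNase-treated ATEV ended without ATEV replicate 3 or DNase-treated ATEV replicate 1 or 2 (adjusted p up to 0.105) and in a fit of the 6 libraries alone (adjusted p = 0.0522). The Irf9 call for ATEV against NTEV ended without NTEV replicate 3 (adjusted p = 0.0815) and in a fit of the 6 libraries alone (adjusted p = 0.0526).

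Of the RNA and DNA sensing signal list 12 genes were tested, and 3 were higher with ATEV than PBS, with a median log2 fold change over the list of 0.14 (all genes 0.03). These were the left-handed nucleic acid sensor Zbp1 (5.43 ± 0.38 SE, adjusted p = 4.40e-06), the kinase Ikbke (0.91 ± 0.17 SE, adjusted p = 0.00878) and the endosomal RNA receptor Tlr3 (1.63 ± 0.31 SE, adjusted p = 0.0116). The Ikbke call ended without PBS replicate 2 (adjusted p = 0.053) and the Tlr3 call without ATEV replicate 2 or PBS replicate 2 or 3 (adjusted p up to 0.0803). Zbp1 measured 7.36, 7.55 and 11.6 CPM in the ATEV libraries, 1.01, 0.568 and 0.584 CPM with DNase-treated ATEV, 0.173, 0.16 and 0.0994 CPM with NTEV and 0.28, 0.0939 and 0.215 CPM in PBS. The ATEV libraries stood far above the rest, and DNase-treated ATEV lay above NTEV and PBS, a difference not called (1.81, adjusted p = 0.412 against PBS). Zbp1 (3.61, adjusted p = 6.54e-05) and Ikbke (1.00, adjusted p = 0.00698) were also higher with ATEV than DNase-treated ATEV, and Zbp1 was higher than with NTEV (5.85, adjusted p = 4.61e-06). A further list of 37 antiviral interferon-stimulated genes, also chosen with earlier results known, had 30 tested. Of these, 16 were higher with ATEV than PBS and none lower, with a median log2 fold change of 0.89 (all genes 0.03). The 4 with the smallest adjusted p were the nuclear protein Sp110 (1.38 ± 0.18 SE, adjusted p = 0.000869), the galectin Lgals9 (1.38 ± 0.19 SE, adjusted p = 0.00102), Slfn2 (1.46 ± 0.20 SE, adjusted p = 0.0011) and Trafd1 (1.49 ± 0.21 SE, adjusted p = 0.00136). Here 8 genes were higher with ATEV than DNase-treated ATEV, led by Slfn2 (1.62, adjusted p = 0.00108) and Sp110 (1.18, adjusted p = 0.00428), and 5 were higher than with NTEV, led by Sp110 (1.24, adjusted p = 0.00329) and Nmi (1.07, adjusted p = 0.0071); none was called for DNase-treated ATEV against PBS, and 3 were higher for NTEV against PBS. These were Lgals9 (0.90 ± 0.19 SE, adjusted p = 0.027), the cytidine deaminase Apobec3 (0.47 ± 0.11 SE, adjusted p = 0.0412) and the helicase Ddx60 (2.24 ± 0.53 SE, adjusted p = 0.0441). The 3 are 10% of the tested genes of this list, beside 1.7% of all genes called higher. For NTEV against PBS the list's median log2 fold change was 0.34 (all genes -0.003), with 24 genes positive and 6 negative. For DNase-treated ATEV against PBS it was 0.12 (all genes 0.003), with 22 positive and 8 negative. The Nmi call for ATEV against NTEV ended without NTEV replicate 3 (adjusted p = 0.0669). For NTEV against PBS the calls were lost for Lgals9 without NTEV replicate 2 or 3 or PBS replicate 1 or 2 (adjusted p up to 0.113) and in a fit of the 6 libraries alone (adjusted p = 0.0925) and for Ddx60 without NTEV replicate 2 or 3 or PBS replicate 1, 2 or 3 (adjusted p up to 0.203) and with library totals as the only scaling (adjusted p = 0.0502) or with limma-voom (adjusted p = 0.0666), and for Apobec3 without NTEV replicate 2 or 3 or PBS replicate 1, 2 or 3 (adjusted p up to 0.181) and with library totals as the only scaling (adjusted p = 0.0656), with limma-voom (adjusted p = 0.0503) or in a fit of the 6 libraries alone (adjusted p = 0.103).

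Promoter letters and calls can be set side by side. Of 16 members called higher with ATEV against PBS that had a promoter window, 11 (68.8%) held an ISRE core. Of 13 that were tested and not called, 3 (23.1%) did, namely Ifit1, Ifit3 and Ifitm3. The gamma-activated site was in 3 of the 16 (18.8%) and 5 of the 13 (38.5%). These are counts with no test. The 6 members with no window in the table were Dhx58, Oas1b, Oas2, Mx1, Mx2 and Rtp4.

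Of the 21 members called for ATEV against PBS, 8 were called in every fit with 1 of the 6 libraries left out: Ifih1, Oas3, Oasl2, Mx1, Isg15, Trim30a, Xaf1 and Sp100. The count of called members was 16 without ATEV replicate 1, 14 without ATEV replicate 2, 16 without ATEV replicate 3, 11 without PBS replicate 1, 8 without PBS replicate 2 and 14 without PBS replicate 3. In the comparison with DNase-treated ATEV 3 of 12 calls were kept throughout (Oasl2, Mx1 and Sp100), and in that with NTEV 8 of 14. Against DNase-treated ATEV the count was 6 without ATEV replicate 2, 5 without ATEV replicate 3, 3 without DNase-treated ATEV replicate 2 and 3 without DNase-treated ATEV replicate 3. Against NTEV it was 9 without ATEV replicate 3 and 8 without NTEV replicate 3. No called member changed sign under any alternative tried. Of members not called, 5 of 14 were called in at least 1 alternative for ATEV against PBS, 11 of 23 against DNase-treated ATEV, 6 of 21 against NTEV and 4 of 33 for NTEV against PBS. Against DNase-treated ATEV the most gains were for Trim30a (6 of 14 alternatives, adjusted p = 0.00327 with DESeq2), Oas2 (5 of 14, adjusted p = 0.00194 with DESeq2) and Rtp4 (5 of 14, adjusted p = 0.0181 with DESeq2). Against NTEV they were for Oas3 (adjusted p = 0.00702 with DESeq2), Mx2, Cmpk2 and Trim30a, in 3 alternatives each.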

How the data were processed

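Stranded mRNA libraries, 12 in all, of DC2.4 cells were analysed. Tools listed in the submitters' processing notes are Cufflinks 2.1.1, TopHat and its version TopHat2 2.0.11, and bcl2fastq 2.19, with build mm9. Which program counted reads, with what annotation and strand setting, is not given in the sources used here, and reads of overlapping or antisense genes may be mixed. The values are whole-number counts per Ensembl gene as deposited by the authors, with no normalization visible. Gene symbols came from GENCODE M21 (42250 of 42687 identifiers matched), as did exon lengths, and promoter sequences from RefSeq (GRCm38.p6). Replicates differed by more than counting noise (chi-square per degree of freedom 13.6 to 119), so none was counted as a copy.

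In R 4.3.3, edgeR 4.0.16 kept 13261 genes by filterByExpr (minimum count 10, minimum total 15), scaled libraries by TMM and fitted a quasi-likelihood model with 1 mean per group to all 12 libraries. The 5 comparisons were tested two-sided with Benjamini-Hochberg adjustment within each, and all adjusted p-values and SEs without another tool named come from this fit. CPM are TMM-scaled. DESeq2 1.42.0 and limma-voom 3.58.1, other scalings, filters and fits, and leaving out each library were alternatives. The members and gene lists were chosen with earlier results of these data known. Per-library values are given for members called in at least 1 comparison, and for the IFIT member with the most counts; of other lists, up to 4 called genes, taken from those with the smallest adjusted p, and a panel of signalling genes are named, not all for every comparison. Some genes of these lists, including some with small adjusted p, are not reported here.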

Additional observations from a re-analysis of the deposited data

How the results depend on the processing

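Counts of members called moved with the settings, and no called member changed sign in any of them. Of 2425 alternative values for single members, 2232 kept their side of the threshold, 128 lost a call and 65 gained one. These values pool all comparisons, and most belong to members that were not called with all libraries. Only a called member can lose a call, so the 128 are not to be read as a share of 2425. With 1 library left out, members called numbered 8 to 16 for ATEV against PBS (21 with all libraries), 0 for DNase-treated ATEV against PBS, 1 to 4 for NTEV against PBS (2 with all), 3 to 12 for ATEV against DNase-treated ATEV (12) and 8 to 15 for ATEV against NTEV (14). Genes called overall numbered 169 to 849 (628 with all libraries), 0 to 8 (0), 34 to 1685 (306), 78 to 522 (194) and 70 to 302 (124) in the same order of comparisons. For NTEV against PBS the members called were 1 with library totals only or limma-voom, 4 with DESeq2 and 0 in a fit of the 6 libraries alone. For ATEV against DNase-treated ATEV they were 20 with DESeq2, 19 higher and 1, Isg20, lower. No other tool, scaling, filter or fit moved a members' count by over 1.5 times. Genes called overall for ATEV against PBS numbered 1538 with DESeq2, 1317 with no filter and 1244 in the fit of 6 libraries. For DNase-treated ATEV against PBS they were 38 with DESeq2, 47 with no filter and 1 with library totals or the filter of 1 CPM in 3 libraries. For NTEV against PBS they were 861 with DESeq2, 876 with no filter and 19 in the fit of 6 libraries. For ATEV against DNase-treated ATEV they were 495 with DESeq2 and 394 with no filter, and for ATEV against NTEV 373 with DESeq2, 242 with no filter and 82 in the fit of 6 libraries. The cause was not tested. Same-numbered libraries did not deviate together in every pair of any comparison (correlation of deviations -0.425 to 0.577), so the numbers were not taken as pairs; with a replicate block the members called were 24, 0, 2, 16 and 16 and the genes called for ATEV against PBS and DNase-treated ATEV against PBS were 1440 and 1. Members with few counts, such as Cmpk2, Rtp4, Mx2, Ifit1 and Ifit3, had wide SEs, in which counting error and replicate spread were not separated.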
